A study of Mus musculus with 18 samples.

Results

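The 9 protein-coding genes described here are not usual markers of B cells, and they were followed through chromatin accessibility data from mouse spleen. They are Alpk2, Dennd5b, B3gat2, Lmbrd1, Abcb10, Gch1, Car2, Serpinb7 and Rfc3. They were chosen by the counts themselves, for regions beside or inside them that were more accessible in B than in T cells of tissue patches. Each accessible region of the deposited table was given to the protein-coding gene with the nearest gene end within 50 kb, and 37 of 27396 regions fell to these 9 genes. A gene end here is either end of a gene, that with its start or the other. Regions are numbered along the chromosome within each gene.

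The samples were spleen sections of wild-type C57BL/6J mice, tagmented in place, from which stained B or T cells were cut by laser. In ATAC-seq a transposase inserts sequencing adapters into open DNA, so reads pile up where chromatin is accessible. A library held either 10 patches of about 100 nuclei each, labelled as 1000 cells, or 100 nuclei cut one by one. There were 5 libraries of B patches, 5 of T patches, 4 of B 100 nuclei and 4 of T 100 nuclei, called technical replicates by the submitters. How many mice gave the sections, their age and sex, and which proteins were stained, are not stated in the sources used here, so p-values measure only the spread between these libraries. A patch is a piece of tissue and can hold cells of other types. Fewer cells of a type and less open DNA per cell cannot be told apart in such samples.

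The genes do different work. Gch1 encodes GTP cyclohydrolase, the rate-limiting enzyme of tetrahydrobiopterin synthesis, Car2 a cytosolic carbonic anhydrase that interconverts carbon dioxide and bicarbonate, and B3gat2 a glucuronyltransferase that helps to build the HNK-1 carbohydrate. Abcb10 is a transporter of the mitochondrial inner membrane known from red cell precursors, Lmbrd1 is needed for cobalamin to leave the lysosome, and Dennd5b belongs to the DENN domain proteins, which act on Rab GTPases of membrane traffic. Alpk2 is an alpha-kinase, Serpinb7 a clade B serine protease inhibitor, and Rfc3 a subunit of the clamp loader that places PCNA on DNA. Open regions away from a gene's start are often enhancers, and regions over a start are often promoters open in many cell types.

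The RefSeq table of promoter windows used here, on GRCm38.p6, the assembly behind mm10, was matched for 6 of the 9 genes, all but Alpk2, B3gat2 and Car2. Counts of starts leave out the regions of those 3. Of the 37 regions, 5 lay over such a start, at Dennd5b, Lmbrd1, Abcb10, Gch1 and Rfc3. None of these 5 was called higher in B by edgeR, and DESeq2 called 1 of them, at Abcb10. The 250 bases before the start are shown for the 4 of these genes whose start is the gene's outermost one. Their start regions had reads in all 5 B patch libraries and in 4 of 5 T patch libraries, T library 2, the shallowest, having none. That does not set the starts apart, since called regions such as Alpk2 region 3 had reads in all 5 T patch libraries. The sequences are written 5′ to 3′ in the gene's direction, all on the minus strand, and capitals mark exact motif matches.
Dennd5b, chr6:149101681-149101930, minus strand: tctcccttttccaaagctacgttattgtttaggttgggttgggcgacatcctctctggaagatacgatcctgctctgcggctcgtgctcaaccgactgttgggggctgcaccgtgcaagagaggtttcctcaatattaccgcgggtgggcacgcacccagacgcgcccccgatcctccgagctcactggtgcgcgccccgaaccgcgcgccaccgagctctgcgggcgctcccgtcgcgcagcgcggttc
Abcb10, chr8:123983123-123983372, minus strand: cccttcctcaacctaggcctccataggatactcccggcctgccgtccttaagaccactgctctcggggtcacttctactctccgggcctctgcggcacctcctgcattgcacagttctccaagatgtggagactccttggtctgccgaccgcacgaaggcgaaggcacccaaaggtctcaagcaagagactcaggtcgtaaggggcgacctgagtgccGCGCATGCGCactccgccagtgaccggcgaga
Gch1, chr14:47189414-47189663, minus strand: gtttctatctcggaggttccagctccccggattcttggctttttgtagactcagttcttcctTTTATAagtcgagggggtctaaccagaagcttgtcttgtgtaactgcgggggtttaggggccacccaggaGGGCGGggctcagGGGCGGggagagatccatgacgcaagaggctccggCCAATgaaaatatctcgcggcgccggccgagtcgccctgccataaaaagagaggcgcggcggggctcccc
Rfc3, chr5:151651209-151651458, minus strand: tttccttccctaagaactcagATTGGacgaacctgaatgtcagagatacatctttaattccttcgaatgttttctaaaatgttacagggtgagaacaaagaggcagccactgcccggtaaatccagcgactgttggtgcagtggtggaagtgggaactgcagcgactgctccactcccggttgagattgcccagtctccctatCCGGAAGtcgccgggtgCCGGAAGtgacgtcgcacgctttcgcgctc
The letters of 7 motifs were searched on both strands. The GC box was searched as GGGCGG, which 32.7% of all 32851 RefSeq windows of this length hold, and Gch1 held it at 2 places. The CCAAT box, CCAAT in 33.8% of windows, was found once in Gch1 and, on the other strand, once in Rfc3. The ETS letters, CCGGAAG in 6.91% of windows, stood at 2 places in Rfc3, and TATAAA, in 12.4% of windows, once on the other strand of Gch1. The core of the NRF1 site, GCATGCGC in 2.26% of windows, matched Abcb10 once on each strand, in overlapping letters. Dennd5b held no match. Of the factors known from B cells, neither the PU.1 letters, GAGGAAGT in 2.44% of windows, nor the octamer, ATGCAAAT in 1.60%, were in the 4 windows. The deposited regions covered 113, 123, 170 and 146 of the 250 bases at Dennd5b, Abcb10, Gch1 and Rfc3.

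B patches held 2713677 to 6553535 counts per library, T patches 2193837 to 7343204, B 100 nuclei 547333 to 720555 and T 100 nuclei 319481 to 1076765. These totals include mitochondrial regions, which held 18.8 to 33.6% of counts in B patches and 16.1 to 23.1% in T patches. At 100 nuclei their share was 29.4 to 45.8% in B and 24.3 to 33.6% in T. T libraries 3 and 4 of 100 nuclei stood apart, with reads in 3941 and 3300 regions where the other 100-nucleus libraries had 7614 to 10954. Summed over regions at B cell marker genes, normalized CPM were 1647 to 2343 in B patches and 352 to 555 in T patches, with 16 of 47 tested regions called higher in B. T cell marker genes gave 295 to 407 in B patches and 1291 to 1648 in T patches, with 11 of 44 called higher in T and no region assigned to Cd4. Markers of other cells were also read. Regions at 3 of 6 macrophage genes summed to 118 to 205 in B and 27.3 to 82.6 in T patches (1 of 6 regions called higher in B), and regions at 2 of 5 dendritic cell genes to 92.0 to 129 and 18.8 to 84.8 (0 of 7 called). Regions at 2 of 8 erythroid genes summed to 38.2 to 74.3 in B and 8.04 to 67.9 in T patches (0 of 3 called). Stroma and endothelium genes summed to 84.8 to 152 in B and 141 to 235 in T patches (0 of 7 called). NK cell genes summed to 87.0 to 202 and 120 to 213 (0 of 10 called) and plasma cell genes to 218 to 299 and 226 to 286 (0 of 11 called). Neutrophil genes had no region, and no marker gene with a region was at 0 in either patch group. The part of these cells in the values below was not tested.

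In B versus T patches, 36 of the 37 regions passed the filter on low counts and were tested with edgeR, and 12 were called higher in B at an adjusted p under 0.05, at all 9 genes. Of all 25712 regions tested, 2.27% were called, 1.22% higher in B and 1.05% higher in T. None of the 36 was called higher in T. With 1 library left out, the number called was 4 (B library 4), 5 (B library 1), 7 (B library 3 or T library 1, 3 or 4) or 8 to 12 (each of the others). These were not always among the 12: B3gat2 region 1 was called without T library 2, and Serpinb7 region 4 without T library 1. A joint edgeR fit of all 18 libraries, with each region's spread estimated over the 4 groups together, called 0 of the 36 and 0 of all. The libraries of the 2 cell types did not overlap, with B higher, at 19 of the 37 regions, against 4.33% of all, and with T higher at none, against 3.69% of all. The genes were chosen for this contrast, so these counts and all patch differences below describe the choice and carry no test of it. The median log2 fold change of the 36 was 2.10, against −0.03 over all regions tested, and 6 of the 36 were below 0.

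Gch1 had 4 regions, all inside the gene. Its leading region, meaning the one with the smallest p in patches, was region 2 at chr14:47165709-47165992, 23.4 kb downstream of the start. Normalized CPM, the read count as a share of the library after TMM scaling, were 37.4, 23.5, 25.5, 42.8 and 33.7 in B patches 1 to 5 and 0, 0, 4.11, 1.75 and 0.667 in T patches 1 to 5. Every B patch stood above every T patch. The log2 fold change was 4.52 ± 0.95 (SE), and it no longer passed with B library 4 left out (4.42). Region 1, next to it, averaged 20.1 ± 10.0 across B patches (SD, n = 5) and 2.92 ± 2.56 across T patches (SD, n = 5), also without overlap, at 2.79 ± 0.94, and was not called. The region over the start, region 4, had 33.9 ± 13.3 and 14.9 ± 14.4, at 1.18 ± 0.74, and overlapped between the cell types.

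Car2 had 2 regions, of which 1 was called. Region 1, chr3:14880281-14880638, lay 5.63 kb outside the gene, with the next gene, Car3, another carbonic anhydrase, ending 7.90 kb from it. Its normalized CPM were 51.2, 49.9, 84.9, 84.3 and 38.7 in B patches and 6.10, 0, 6.49, 0 and 4.89 in T patches. The log2 fold change was 4.08 ± 0.77, and it was called without any 1 of the 10 libraries (3.77 to 4.43). Region 2, chr3:14886275-14886893, began 0.006 kb inside a gene end and had similar means, 46.0 ± 9.82 over the 5 B patches and 44.7 ± 17.2 over the 5 T patches, at 0.04 ± 0.38. Every patch library had reads there, and the B values lay within the T range.

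B3gat2 had 3 regions outside and 1 inside the gene. Region 2, chr1:23721148-23721420, lay 40.5 kb from the gene, the nearest protein-coding one. It had 38.6, 68.3, 22.8, 50.0 and 25.4 normalized CPM in B patches and 2.29, 10.9, 2.91, 2.51 and 5.78 in T patches, at 3.09 ± 0.64, and passed with any 1 library left out (2.83 to 3.57). Region 1, next to it, had nearly the same difference, 3.02 ± 0.96, with 44.1 ± 21.0 against 5.63 ± 9.17, and was not called with all libraries. Inside the gene, 0.976 kb from its nearer end, region 4 had 36.2 ± 6.54 against 9.69 ± 8.94 without overlap, at 1.89 ± 0.88. Whether that end holds the start could not be placed, as B3gat2 had no promoter entry. Region 3, read in 2 B and 3 T patches, had 1.87 ± 3.83 against 4.74 ± 5.02.

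At Abcb10 all 3 regions were inside the gene. Region 1, chr8:123953796-123953983, lay 29.1 kb downstream of the start and 1.34 kb from the gene's far end, with an end of Nup133 4.53 kb away. It had 36.5, 26.1, 29.7, 57.9 and 22.2 normalized CPM in B patches and 5.34, 0, 0.132, 0 and 0.445 in T patches. T library 1 held 21 of the 24 T counts. The log2 fold change was 4.84 ± 1.05, its fitted value was 7.54 without T library 1, and it failed to pass without B library 1 (4.82) or 4 (4.57). Region 2, next to it, had 31.6 ± 8.82 against 5.62 ± 8.48, at 2.48 ± 1.0. Region 3 over the start had the smallest difference of the 3, 1.88 ± 0.71 (45.2 ± 13.0 against 12.1 ± 12.9), where T library 3 alone reached into the B range.

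The Lmbrd1 locus held a start region open in both cell types and 2 regions downstream, of which 1 was called. Region 3, chr1:24685616-24685928, 6.70 kb into the gene from the nearest start, had 100.4, 34.5, 40.6, 59.3 and 46.0 normalized CPM in B patches and 6.61, 22.1, 3.97, 6.26 and 18.2 in T patches, at 2.31 ± 0.54. It was the leading region with the highest T level, and 5 of 10 fits with a library left out did not call it, those without B libraries 1 and 4 and T libraries 1, 3 and 4 (1.99 to 2.29). Region 2, 2.24 kb from the start, had 23.4 ± 14.9 against 3.18 ± 2.85, at 2.88 ± 0.97. Region 1, over the start at chr1:24678355-24678928, was open in all 10 patch libraries at 79.3 ± 36 and 68.4 ± 23.7, the highest mean of the 37 regions in both cell types, with a log2 fold change of 0.21 ± 0.35.

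Dennd5b had 6 regions, of which region 2 did not pass the filter. Region 3, chr6:149092562-149092698, 8.98 kb into the gene, had 24.3, 5.14, 16.9, 33.1 and 12.3 normalized CPM in B patches and 0, 0, 1.59, 0 and 0 in T patches. All 12 T counts came from T library 3, so the fitted log2 fold change of 5.52 ± 1.37 rests on that library. Without it the fitted value, 9.34, has no meaning as a size. Leaving out B library 1, 3, 4 or 5, or T library 1, 4 or 5, ended the call (5.21 to 5.65). Region 1, 1.74 kb beyond the gene's far end, had 30.1 ± 11.0 against 3.81 ± 3.66 at 3.01 ± 0.77, a call that held in 1 of 10 fits with a library left out, that without T library 2 (2.72 to 3.73 over the 10). Region 6 over the start had 28.6 ± 12.9 against 10.3 ± 14.2, at 1.47 ± 0.90, with overlap, as in regions 4 and 5 within 0.623 kb of the start (1.31 ± 1.19 and 1.12 ± 1.29). Region 2, read in 5 B and 3 T patches, did not overlap between the groups (2.85 to 6.99 against 0 to 2.22).

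Alpk2 held called regions beside others with little difference. Regions 1 to 4 lay together inside the gene, at chr18:65301595-65312756. Region 3 had 37.5, 34.1, 36.2, 53.0 and 27.1 normalized CPM in B patches and 1.02, 0.402, 3.97, 5.26 and 4.0 in T patches, at 3.64 ± 0.70, and was called without any 1 library (3.36 to 3.93). Region 2 was at 2.94 ± 0.73 (34.6 ± 19.1 against 4.42 ± 3.20), a call that 6 of 10 such fits did not make, those without B libraries 1, 3 and 4 and T libraries 1, 3 and 4 (2.68 to 3.10). Their neighbours were not called: region 1, next to region 2, had 33.5 ± 10.6 against 26.7 ± 12.7 (0.33 ± 0.50), and region 4 had 44.0 ± 13.5 against 66.0 ± 21.8 (−0.58 ± 0.34). Regions 5 to 7, inside or outside the gene near its other end, were below 0 (−1.54 to −1.34), with overlapping groups. Region 6, the nearest of the 7 to a gene end, averaged 11.2 ± 6.16 in B and 28.7 ± 30.5 in T patches, and T library 2 alone had 81.6.

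Serpinb7 was the gene with the fewest reads in T patches. Its 4 regions lay inside the gene, 12.9 to 25.0 kb from the start, and no region lay over the start. Summed over the 4, T patches averaged 6.84 normalized CPM and B patches 103. Region 1, chr1:107435600-107435848, had 21.9, 62.8, 41.0, 33.1 and 25.4 in B patches and 0.508, 0, 0, 8.02 and 0.222 in T patches, at 4.38 ± 1.06. T library 4 held 32 of the 35 T counts, and without it the fitted value was 7.52. It passed only without T library 2 or 4, and not without any 1 of the others (4.03 to 4.52). Region 3 was at 3.95 ± 1.04 (33.6 ± 6.42 against 2.09 ± 3.38), and passed in 1 of 10 such fits, that without T library 5 (3.63 to 5.36 over the 10). Regions 2 and 4 were at 3.17 ± 1.41 and 3.67 ± 1.30 and were not called with all libraries. Region 4, the nearest to a gene end, averaged 19.1 ± 14.6 in B and 1.485 ± 2.74 in T patches, and the groups overlapped.

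Rfc3 had its called region at the far end of the gene. Region 1, chr5:151643016-151643199, lay 0.199 kb inside the end opposite the start, 8.01 kb from the start, with no other protein-coding gene end within 50 kb (the next, Vmn2r18, at 56.1 kb). It had 35.4, 61.3, 33.5, 25.2 and 11.6 normalized CPM in B patches and 2.03, 0, 0.927, 0.251 and 4.45 in T patches, at 4.39 ± 0.91, and was called without any 1 library (4.06 to 5.26). The regions over and beside the start overlapped between the cell types, with 17.5 ± 4.81 against 12 ± 10.3 (0.53 ± 0.87) and 7.77 ± 2.35 against 4.44 ± 3.95. Region 4, 35.7 kb upstream, was at −1.02 ± 1.40.

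**Figure D1:**
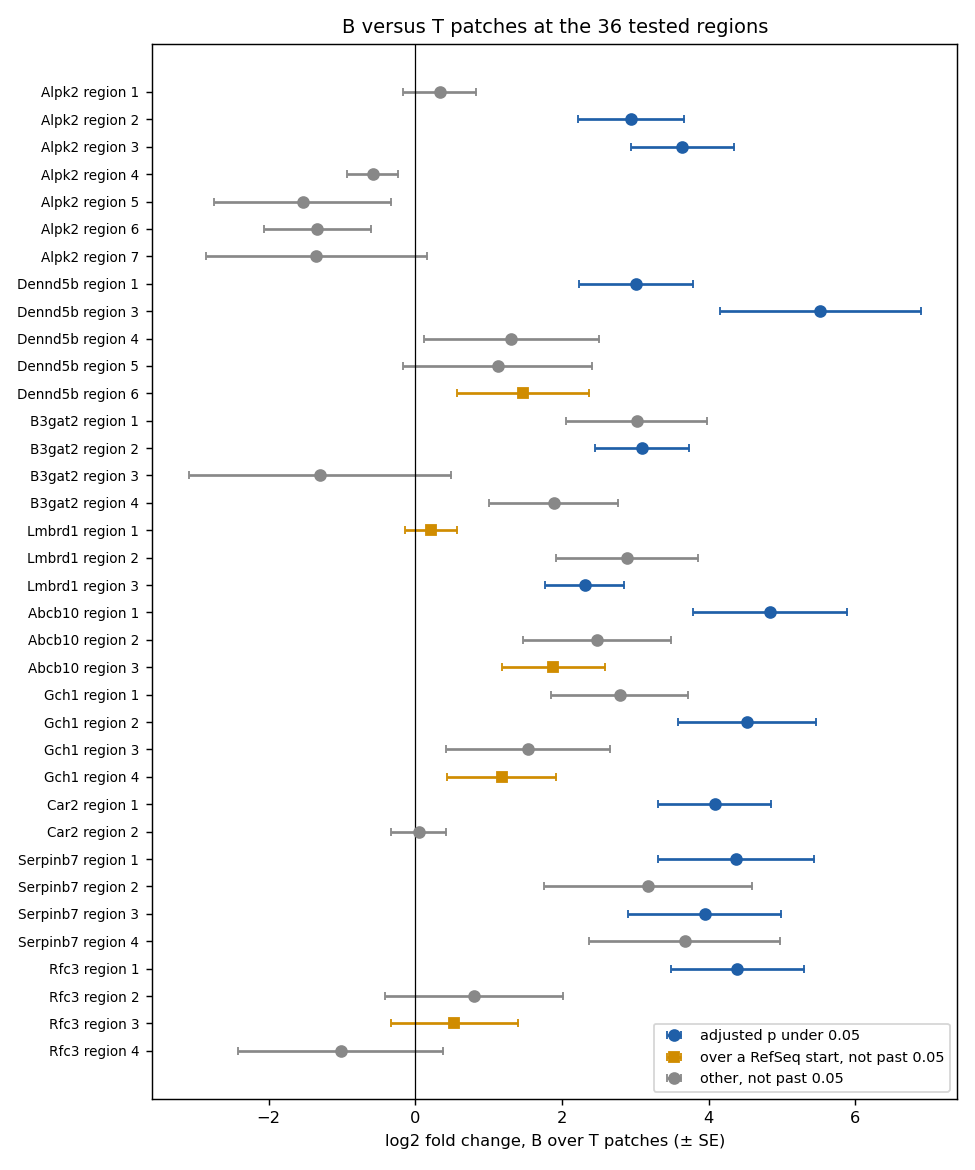
The log2 fold change of B over T patches (x axis, ± SE) for the 36 tested regions, listed by gene along the y axis, with blue for the 12 called, orange squares for the 5 over a RefSeq start, and grey for the rest. The 12 called regions lie between 2.31 and 5.52, and the 5 over a start between 0.21 and 1.88.

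Across the loci, the regions called by edgeR lay away from the starts in the table used. At the 6 genes with an entry in the promoter table, 8 of 18 tested regions off the start were called by edgeR and 0 of 5 over it, while DESeq2 called 1 of the 5, Abcb10 region 3. Over the whole series, 168 of 11567 such regions off a start (1.45%) and 24 of 6556 over one (0.366%) were called higher in B. Of the 9 genes' regions, 11 of 37 (29.7%) lay within 1 kb of a gene end, against 52.1% of all assigned regions, and 30 of 37 (81.1%) overlapped their gene, against 72.8%. Their median length was 221 bases, against 200 for all nuclear regions. Per kb of region, the mean level in B patches of the 9 leading regions ran from 115 normalized CPM at Gch1, through 135 at Dennd5b, 149 at Serpinb7, 151 at B3gat2, 173 at Car2, 180 at Lmbrd1, 183 at Rfc3 and 184 at Abcb10, to 188 at Alpk2. In T patches the order was another, from 2.34 at Dennd5b to 36.7 at Lmbrd1. Neighbours in the B order differed by less than the spread over libraries. Just inside the limit of 50 kb lay region 4 of Alpk2, at 46.9 kb, described above; just outside it, 56.2 kb from B3gat2, 1 region had 11.6 normalized CPM in B and 0.808 in T patches.

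**Figure D2:**
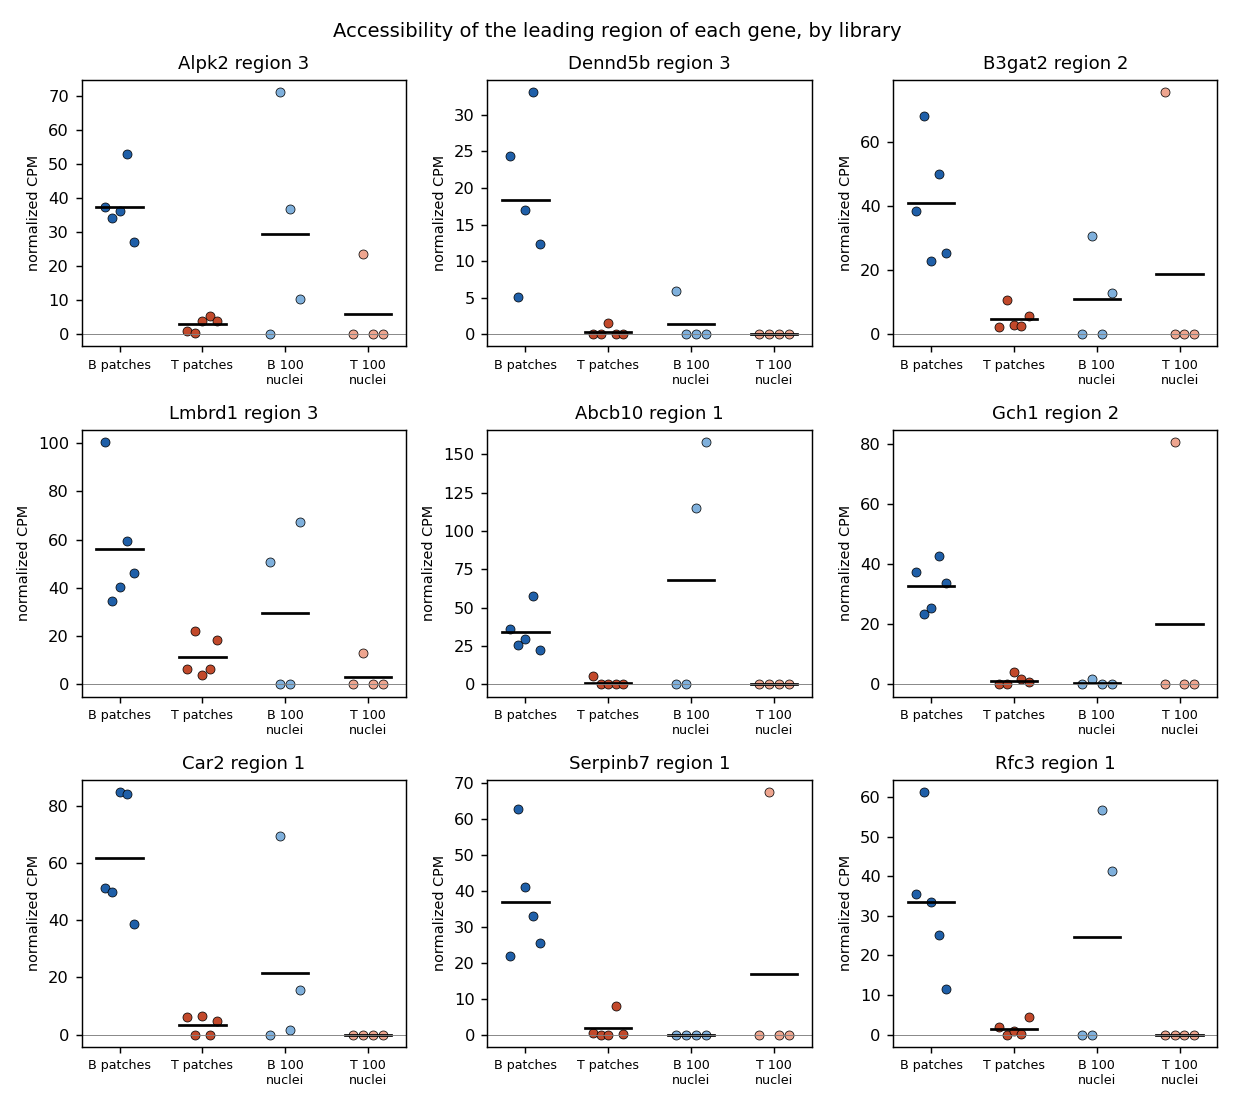
Normalized CPM (y axis, linear, own scale per panel) of the leading region of each gene in every library (points) of the 4 groups on the x axis, with a bar at the group mean. All 5 B patches lie above all 5 T patches in each of the 9 panels, and at 100 nuclei most points are at 0.

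The rule that picked the genes used patch values and not the libraries of 100 nuclei. Their reading is not fully independent of the choice, which was made with earlier results of these data known. The low-count filter also used all 18 libraries. The libraries of 100 nuclei were sparse. Over the 37 regions and 4 libraries, 52 of 148 values had reads in B and 21 of 148 in T. As shares these were 35.1% in B, where all nuclear regions gave 33.8%, and 14.2% in T, where all gave 25.9%. In T libraries 1 and 2 alone, leaving out the sparse libraries 3 and 4, the shares were 24.3% for these regions and 38.6% for all. Per library, 8, 15, 11 and 18 of the 37 regions had reads in B and 8, 10, 1 and 2 in T. The groups overlapped in this count, with B library 1 level with T library 1 and below T library 2.

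**Figure D3:**
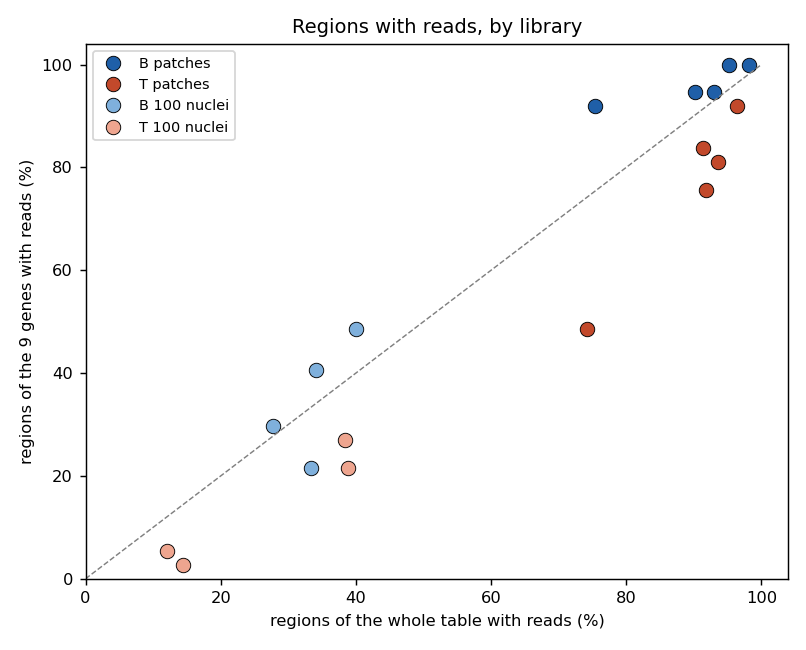
Share of the 37 regions with reads (y axis, %) against the share of all 27396 regions with reads (x axis, %), 1 point per library, coloured by group, with the line of equal shares. All 9 T libraries lie below the line, and 8 of 9 B libraries above it, the exception being B library 1 of 100 nuclei.

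The mean over libraries was higher in B at 25 of the 37 regions (67.6%), higher in T at 7 (18.9%), and 5 had no reads. Of all regions tested, 49.5% were higher in B and 35.2% in T. Against T libraries 1 and 2 alone, 24 regions were higher in B and 8 lower, where 43.7% and 38.9% of all were. No region of the 9 genes was called by edgeR at 100 nuclei. The background was 0.0156% of all regions, which is 4 regions, all mitochondrial. At an unadjusted edgeR p under 0.05 there were 4 of 36, where all regions gave 5.50%. DESeq2 called 0, with 6 of these 36 regions and 2151 of all 25712 under an unadjusted p of 0.05. The joint fit of all 18 libraries called 13 of the 36, 10 higher in B and 3 in T. Of all 25712 regions it called 6955, 4625 higher in B and 2330 in T. In normalized CPM the groups did not overlap at 1 region, Abcb10 region 3, with B higher. Over all regions, B was fully higher at 1.05% and T at 0.124%. The raw counts of Abcb10 region 3 did not separate, as B library 1 and T library 2 each had 3.

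Abcb10 was the gene where B reads recurred most at 100 nuclei, in 8 of 12 values against 3 of 12 in T. Region 3, over its start, had 5.86, 44.3, 61.9 and 90.7 normalized CPM in B libraries 1 to 4 and 1.22, 3.55, 0 and 0 in T libraries 1 to 4, with an edgeR adjusted p of 0.473. The raw counts were 3, 23, 37 and 35 in B and 1, 3, 0 and 0 in T. In raw counts B library 1 was thus level with T library 2, at unlike depths of 547333 and 1076765 counts in all. Region 1 of Abcb10 had 0, 0, 69 and 61 counts in B and 0 in each T library (edgeR adjusted p = 0.356). In a T library 3 counts equal 2.97 to 4.03 normalized CPM, so 0 counts do not show closed chromatin. That region and 3 others were the 4 under an unadjusted p of 0.05, and those 3 also had 0 counts in all T libraries. In B, Alpk2 region 1 had 28, 73, 0 and 16 counts, Alpk2 region 2 had 5, 74, 0 and 2, and B3gat2 region 1 had 22, 9, 0 and 45. The edgeR adjusted p was 0.356 for each.

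The leading regions did not all follow the patches at 100 nuclei. Means were higher in B at 6 of the 9. Car2 region 1 had 0, 36, 1 and 6 counts in B and 0 in T (edgeR adjusted p = 0.356), Rfc3 region 1 had 0, 0, 34 and 16 in B and 0 in T (adjusted p = 0.356), and Dennd5b region 3 had 3 counts in B library 1 and no others. Alpk2 region 3 had 0, 37, 22 and 4 in B and 20 in T library 2, and Lmbrd1 region 3 had 26, 0, 0 and 26 in B and 11 in T library 2. Higher in T were Gch1 region 2, with 1 count in B library 2 and 68 in T library 2, Serpinb7 region 1, with 0 in B and 57 in T library 2, and B3gat2 region 2, with 16 and 5 in B libraries 2 and 4 and 62 in T library 1. Each of these 3 rests on 1 T library, and none passed the test (edgeR adjusted p = 0.646, 0.356 and 1). Whether B and T differed by another amount at 100 nuclei than in patches was not tested.

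**Figure D4:**
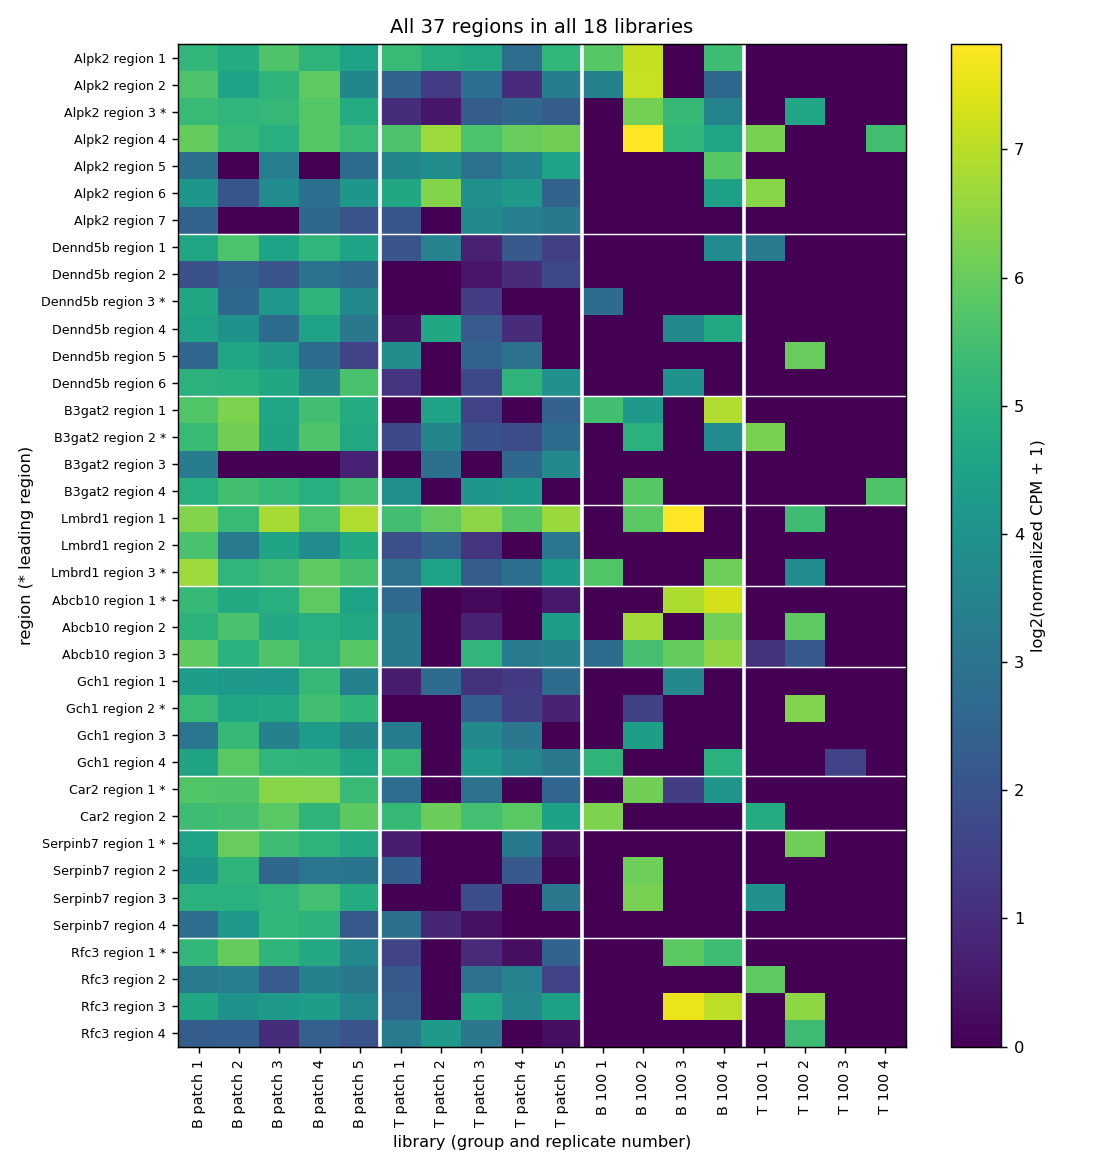
Colour gives log2(normalized CPM + 1) of all 37 regions (rows, by gene, leading regions starred) in all 18 libraries (columns, by group and replicate number). Rows such as Lmbrd1 region 1, Car2 region 2 and Alpk2 region 4 are bright in both patch groups, the starred rows are brighter in B than in T patches, and most cells at 100 nuclei are at 0.

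Genes related to the 9 were listed by function or family. Regions were assigned to 69 such genes, and of 127 tested regions 0 were called higher in B and 1 higher in T, against 1.22% and 1.05% of all. Values above 0 were seen at 60 of the 127. The tetrahydrobiopterin genes beside Gch1 had 7 regions with a median log2 fold change of −0.42; at Qdpr, which regenerates the cofactor and is named after its values were seen, a region averaged 229 ± 38.3 normalized CPM over B patches and 154 ± 39.9 over T patches (SD; edgeR adjusted p = 0.295). Other carbonic anhydrases had 8 tested regions (median −0.10), cobalamin genes 13 (−0.19), mitochondrial transporters and haem synthesis genes 16 (0.04), alpha-kinases 5 (0.11), glucuronyltransferases of the HNK-1 type and linker 3 (−0.53) and clamp and clamp loader genes 16 (−0.04), with 0 called in each.

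Among DENN domain genes 1 of 48 regions was called, in the direction opposite to Dennd5b. It lay 26.4 kb outside Dennd4c, chr4:86722001-86722140, with 0, 0, 0, 0 and 0.332 normalized CPM in B patches and 14.5, 1.61, 15.4, 22.0 and 14.5 in T patches (edgeR adjusted p = 0.0204). All T patches stood above all B patches, and a fitted fold would rest on the few reads of B library 5, so no size is given. The list's median was 0.07. Clade B serpins other than Serpinb7 had 11 regions with a median of −0.33 and 0 called. A region inside Serpinb1c, also named after its values were seen, had 37.6 ± 9.39 against 5.59 ± 4.39 without overlap (2.74 ± 0.75) and did not pass (edgeR adjusted p = 0.0595).

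Regions elsewhere with the profile most like the mean of the 9 leading regions were found by root mean square distance of log2(normalized CPM + 1) over the 18 libraries. The search kept to regions assigned to genes outside the 9, leaving out genes with predicted names (Gm with digits, or Rik). The 5 nearest lay at Chst3 (1.13), Parp1 (1.135), Ddx6 (1.16), Foxp4 (1.18) and Fstl4 (1.21), against a median distance of 2.59 over 22000 regions and 1.38 to 1.95 for the leading regions themselves. At Chst3, which encodes a carbohydrate sulfotransferase, B and T patches averaged 25.3 and 2.88 normalized CPM. The 18 libraries share depth as well as cell type within a group, and none of the 5 was called in patches (edgeR adjusted p = 0.0748 to 0.246).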

How the data were processed

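The authors deposited 1 table of raw counts for 27396 regions in 18 libraries, and column names were matched to titles in the labels. Per the submitters' processing notes the tools were Bowtie2 2.4.5, MACS2 2.2.7.1, Picard, SAMtools 1.14, Trimmomatic 0.36, deepTools 3.5.2, bcl2fastq 2.20 and R 4.1.0, with mm10 as the build. No source used here says what each did, whether duplicates were removed or insertions shifted, or whether starts count from 0. No molecular identifiers are stated, so counts may not be independent molecules.

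Regions were assigned with RefSeq tables of GRCm38.p6, protein-coding genes only (13.3% had no gene end within 50 kb). edgeR 4.0.16 in R 4.3.3 tested B against T within patches and within 100 nuclei, with a minimum count of 10 in filterByExpr, TMM scaling, quasi-likelihood tests, and p-values adjusted by Benjamini-Hochberg over all 25712 regions. An SE is the size of the log2 fold change over root F. Of the steps, only the edgeR test was run on simulated counts, with changes placed in regions at or above the median level. Its outcome is not given here. Members, lists and rules were chosen with earlier results of these data known. The text names all 9 genes, their leading regions and the regions nearest a gene end, of each related list the regions that passed (up to 2), and the 5 regions of most similar profile. Alternatives were DESeq2 1.42.0, other scalings, filters and fits, and each library left out. Outlying libraries were sought in 16 groups of leading-region values with a median of at least 10 counts, and 0 were found. Groups under that median were not searched, among them T patches at Abcb10 region 1 and Serpinb7 region 1. The search therefore says nothing on T counts that came mostly from 1 library there.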

Additional observations from a re-analysis of the deposited data

How the results depend on the processing

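For B versus T in patches the count of called regions, 583, was 2120 with DESeq2, 594 with library size as scaling (232 higher in B and 362 in T, against 314 and 269), 1156 without both libraries numbered 2, and 259 to 673 without 1 library (at most 376 without any 1 library other than B or T library 2). The joint edgeR fit of all 18 libraries called 0 (733 under an unadjusted p of 0.05). Regions of the 9 genes called, 12, were 4 to 12 without 1 library (libraries named above), 10 to 16 with DESeq2, other scaling, no filter, no mitochondrial regions or without both libraries numbered 2, and 0 in the joint fit (9 under an unadjusted p of 0.05; DESeq2 called 16). In each of these alternatives all called were higher in B. Library size as scaling shifted the median of all regions to −0.19. With the replicate number as a block, 215 regions and 6 regions of the 9 genes were called. Deviations of same-numbered B and T patches correlated at −0.00717 to 0.0332, and B library 2 alone correlated best with its own number. Whether same-numbered libraries were prepared together is not stated, and these correlations cannot decide it.

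At 100 nuclei the 4 calls became 0 with DESeq2 (2151 under an unadjusted p of 0.05), 0 without mitochondrial regions (1264) and 0 with the replicate block (81). They were 2 to 4 without 1 library (2 without B library 2 or 4). The joint fit called 6955, 4625 higher in B and 2330 in T. It also called 13 regions of the 9 genes, 10 higher in B and 3 in T. The cause was not tested. Fitted signs there turned on single libraries: B3gat2 region 2 ran from −2.10 to 5.86 without 1 library and was 2.97 with the replicate block, Gch1 region 2 from −6.83 to 1.83, Dennd5b region 1 from −3.71 to 4.11 and Serpinb7 region 3 from −4.43 to 6.62, none past the threshold. With 0 counts in most libraries these values have no meaning as sizes. With a limit of 10 kb to a gene end, 21 regions were assigned to the 9 genes, and 37 when overlap with the gene came first. The 10 kb limit left no region at Alpk2, whose nearest lay at 11.8 kb. It also left out the only called regions of B3gat2 (40.5 kb) and Gch1 (11.8 kb), and Serpinb7 region 1 (12.9 kb).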

Other observations

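At 100 nuclei the reads at the 9 genes were in few values but not in few counts: 73 of the values were above 0, with a median of 26 counts and a highest of 134, at Lmbrd1 region 1 in B library 3. Over all nuclear regions the median of values above 0 was 38 counts.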
